A study of Mus musculus with 3 samples.

Results

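The regions described here are 7923 distal bins of 1 kb of the mouse genome (mm10, GRCm38) in which nuclei of the deposited cluster 1, a mesenchyme cluster of the embryo, carried more open chromatin than nuclei of clusters 0, 5, 6, 8 and 9 combined (the pool). They were chosen by measured values. A bin had to lie on an autosome, more than 2 kb from every transcription start site (TSS) of the GENCODE M21 annotation, to hold at least 30 fragment midpoints of cluster 1 summed over all samples, and to have in cluster 1 at least 3 times the level of the pool, where the level is the number of fragments per 1000000 autosomal fragments of the same nuclei (FPM) and 0.1 FPM was added to both values. Of 2462736 autosomal bins, 2132276 were distal and 22532 of these held the minimum of fragments in cluster 1 (open distal bins). The fold was met by 7923 of the open distal bins (35.2%), which are called member bins from here on, and the other 14609 serve for comparison. The levels of clusters 0, 1, 5, 6, 8 and 9 in the member bins therefore follow from the choice and are given as a description, whereas clusters 3, 7 and 10, the sequence and the nearby genes were not part of it. The fragments of cluster 1 entered the choice as a sum over the stages, so its stage values are not independent of the choice and are a description as well.

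The data came from single-nucleus ATAC-seq, in which Tn5 transposase cuts accessible DNA and each nucleus carries its own barcode. Nuclei were isolated from a few frozen sections of whole wild-type C57BL/6JRj embryos, aged E12.5, E13.5 or E15.5 in embryonic days, stained with 7-AAD, a dye for DNA, and sorted; no group was treated. There was 1 library per stage, littermates of these embryos were used for another assay, and the number of embryos in a library was not given in the sources used here, so that stage, embryo and library cannot be told apart. The authors assigned the nuclei to 12 clusters, of which cluster 1 held 10, 125 and 120 nuclei in order of stage.

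In the same order the libraries held 9402554, 87687839 and 53120243 unique fragments, with 153, 970 and 756 nuclei. Cluster 1 contributed 569738, 8187129 and 6071845 autosomal fragments, so values at E12.5 rest on the fewest fragments. No barcode was shared between E12.5 and either other library and 1 was shared between E13.5 and E15.5, whereas 5, 32 and 138 barcodes within the libraries shared at least 10% of their fragments with another barcode; 9 of the 120 cluster 1 barcodes at E15.5 were of this kind. The mesenchyme label was checked against fragments over the bodies and upstream 2 kb of 8 marker genes (Twist1, Twist2, Prrx1, Prrx2, Pdgfra, Col1a1, Col1a2 and Col3a1), all 8 of which were highest in cluster 1. Their summed level was 826 of every 1000000 fragments over genes in cluster 1, 591 in cluster 3, 397 in cluster 7 and 374 in cluster 10, and between 200 and 307 in the clusters of the pool. All 6 muscle markers (Myod1, Myf5, Myog, Pax7, Chrna1 and Ttn) were highest in cluster 10, which is called muscle-like here. Cluster 7 led in 3 of 5 cartilage and 3 of 6 epithelium markers and cluster 3 led in none of the lists, so both are called by number.

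Mesenchyme is the loose connective tissue of the embryo, whose cells lay down a matrix rich in collagen and give rise to dermis, tendon, cartilage, bone and stroma. Open chromatin far from promoters includes enhancers, stretches of DNA at which transcription factors bind and from which a gene at a distance can be switched on. In mesenchyme such factors include basic helix-loop-helix proteins such as Twist1, which recognise E-box letters, and proteins of the TEAD, RUNX and NFI families.

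The centres of 8 member bins are printed as the sequences behind the results, because they combine high fragment counts in cluster 1 or a transcription factor of mesenchyme as nearest gene with motif letters that were more frequent in the member bins than in the other open distal bins. Each is a window of 200 bases around the point with the most Tn5 insertions of cluster 1, on the plus strand of mm10, and is named after the nearest protein-coding gene. Capitals mark the E-box letters CAGATG and CAGCTG, the TEAD letters CATTCC and the NFI half-site TTGGCA on either strand, so that CAGATG also appears as CATCTG and CATTCC as GGAATG; these 4 motifs were chosen for marking after the motif shares had been seen.
Serpinh1 (chr7:99360193-99360392): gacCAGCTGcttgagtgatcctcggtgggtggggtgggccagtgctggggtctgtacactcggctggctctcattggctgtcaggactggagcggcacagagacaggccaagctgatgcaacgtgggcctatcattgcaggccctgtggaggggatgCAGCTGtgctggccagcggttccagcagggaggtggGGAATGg
Col1a1 (chr11:94882789-94882988): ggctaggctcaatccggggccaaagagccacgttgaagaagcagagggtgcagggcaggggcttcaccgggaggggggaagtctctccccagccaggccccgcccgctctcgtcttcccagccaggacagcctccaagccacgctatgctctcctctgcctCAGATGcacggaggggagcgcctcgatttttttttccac
Col6a1 (chr10:76732953-76733152): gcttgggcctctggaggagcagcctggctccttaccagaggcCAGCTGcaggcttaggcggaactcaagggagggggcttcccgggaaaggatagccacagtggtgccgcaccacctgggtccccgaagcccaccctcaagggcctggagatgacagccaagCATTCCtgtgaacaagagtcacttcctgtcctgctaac
Sparc (chr11:55428250-55428449): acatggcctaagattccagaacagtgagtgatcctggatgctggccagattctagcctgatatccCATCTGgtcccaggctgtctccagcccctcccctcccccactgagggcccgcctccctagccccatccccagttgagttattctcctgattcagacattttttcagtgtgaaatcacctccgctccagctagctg
Col1a2 (chr6:4457768-4457967): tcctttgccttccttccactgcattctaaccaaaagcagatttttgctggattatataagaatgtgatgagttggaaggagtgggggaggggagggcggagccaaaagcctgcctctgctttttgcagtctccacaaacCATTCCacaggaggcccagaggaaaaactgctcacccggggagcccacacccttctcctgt
Meox1 (chr11:101856105-101856304): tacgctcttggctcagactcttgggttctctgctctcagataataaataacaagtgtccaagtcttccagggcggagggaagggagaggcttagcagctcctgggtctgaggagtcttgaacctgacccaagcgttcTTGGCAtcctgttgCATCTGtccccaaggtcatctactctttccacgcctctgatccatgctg
Ebf1 (chr11:45265651-45265850): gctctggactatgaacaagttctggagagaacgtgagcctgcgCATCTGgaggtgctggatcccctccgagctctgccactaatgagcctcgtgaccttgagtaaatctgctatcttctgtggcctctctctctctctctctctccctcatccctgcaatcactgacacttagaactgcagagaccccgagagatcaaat
Tbx15 (chr3:99573704-99573903): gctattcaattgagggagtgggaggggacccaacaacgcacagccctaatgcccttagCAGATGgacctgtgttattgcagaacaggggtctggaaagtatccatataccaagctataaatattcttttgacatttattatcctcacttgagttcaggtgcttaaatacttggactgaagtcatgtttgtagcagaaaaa

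The windows near Col1a1, Sparc, Meox1, Ebf1 and Tbx15 held CAGATG, the windows near Serpinh1 and Col6a1 held CAGCTG, and those near Serpinh1, Col6a1 and Col1a2 held CATTCC. None of the 8 windows overlapped an annotated untranslated region. The marked letters are matches to a short word and not measured binding sites.

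Most member bins stood only a little above the minimum of fragments. The number of fragments in cluster 1 had a lowest value of 30, a median of 42, a 95th percentile of 109 and a highest value of 472, which corresponds to a median of 2.83 and a highest value of 31.8 FPM. The pool had a median of 0.550 FPM in the same bins, and the ratio of cluster 1 to the pool had a median of 4.60 and a highest value of 21.6. There were 467 member bins at exactly 30 fragments, whereas 496 bins past the fold had 29 and were left out; the bin just inside lay near Sulf1, with 30 fragments and a ratio of 4.33, and the bin just outside near Rdh10, with 29 fragments and a ratio of 3.55. At the fold, 320 member bins had a ratio between 3 and 3.1 and 345 open distal bins had a ratio between 2.9 and 3. The bin just inside lay near Asb1, with 2.97 FPM in cluster 1 and 0.922 in the pool, and the bin just outside near Tgfbi, with 3.71 and 1.17.

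The fragments of a member bin came from many nuclei. Between 9 and 176 of the 255 nuclei of cluster 1 contributed to a member bin, with a median of 29, and the nucleus that contributed most gave a median of 4 fragments. In 93 member bins (1.17%) at least 20% of the fragments came from 1 nucleus, compared with 1.53% of the other open distal bins, and in none did 1 nucleus give 50%. Fragments shorter than the DNA wound around a nucleosome made up 70.7% of cluster 1 fragments in the member bins and 71.4% in the other open distal bins.

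Member bins tended to lie on their own, and farther from promoters than the other open distal bins but nearer than all distal bins at the median. After joining neighbouring bins there were 6797 regions, of which 5854 were 1 bin, 793 were 2, 122 were 3, 24 were 4, 3 were 5 and 1 was 6 bins long. The longest, chr17:14226001-14232000, lay 21697 to 26697 bp from the TSS of Dact2, which encodes a Dishevelled-binding protein, and held 246 fragments of cluster 1. Runs of 5 bins lay near Col6a2 (chr10:76632001-76637000) and at 2 places near Dnm3, and a run of 4 bins with 483 fragments lay 5224 to 8224 bp from the TSS of Col1a1 (chr11:94927001-94931000). By annotation, 57.8% of the member bins lay outside protein-coding genes, 36.7% lay in introns without touching an exon, 3.07% touched an exon without an untranslated region and 2.45% touched an untranslated region. For the other open distal bins these shares were 52.2%, 35.2%, 5.76% and 6.87%. The median distance to the nearest protein-coding TSS was 39906 bp for member bins, 16026 bp for the other open distal bins and 61532 bp for all distal bins. Within 10 kb of one lay 17.3% of the member bins, 36.8% of the other open distal bins and 16.7% of all distal bins. By chromosome, member bins made up between 27.9% (chromosome 11) and 45.6% (chromosome 13) of the open distal bins.

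The 10 member bins with the most fragments in cluster 1 lay near Serpinh1, Col1a1 (2 bins), Rpl14, Apol6, Id3, Col6a1, Klf4, G430095P16Rik and Sparc. Serpinh1 encodes a chaperone that folds collagen, Col1a1 and Col6a1 encode collagen chains, Sparc encodes a collagen-binding matrix protein, and Id3 encodes an inhibitor of basic helix-loop-helix factors. The Serpinh1 bin, chr7:99360001-99361000, lay 6762 bp from the TSS, outside protein-coding genes, and 176 nuclei of cluster 1 had a fragment in it. In cluster 1 of the E12.5 library it held 36.9 FPM (95% exact Poisson interval 22.8 to 56.3, counting error only, as for all such intervals), followed by 24.4 FPM (21.2 to 28.1) in E13.5 and 41.3 FPM (36.4 to 46.8) in E15.5, so that only the E13.5 and E15.5 intervals did not overlap. In the clusters that did not enter the choice, the same bin held 10.0 FPM in cluster 3, 11.4 in cluster 7 and 19.8 in the muscle-like cluster 10.

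The Col1a1 bin with the most fragments, chr11:94882001-94883000, lay 53224 bp from the TSS and had another pattern over these clusters. In cluster 1 it held 14.0 (6.06 to 27.7), 22.7 (19.6 to 26.2) and 27.2 FPM (23.2 to 31.7) in order of stage. Cluster 3 held 9.79 FPM, whereas cluster 7 held 2.54 and cluster 10 held 2.26, close to the 1.51 of the pool. A second Col1a1 bin, chr11:94873001-94874000, held 20.5 FPM in cluster 1, 7.00 in cluster 3, 7.61 in cluster 7 and 2.82 in cluster 10, so the bins of 1 gene did not share 1 order of clusters. The Id3 bin, 2497 bp from the TSS, held 21.5 FPM in cluster 1 and 17.5 in cluster 7, and the Klf4 bin, 118535 bp from the TSS of this transcription factor gene, held 19.4 and 12.4. Over the 10 bins, cluster 3 ranged from 7.00 to 10.0 FPM, cluster 7 from 2.54 to 17.5 and cluster 10 from 2.26 to 19.8.

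Each member bin was given the protein-coding gene with the nearest TSS, which need not be a gene that the bin regulates. The 7923 bins had 2943 nearest genes, of which 1445 had 1 member bin and 117 had 10 or more. The nearest gene stayed the same for 42.5% of the member bins when TSSs of all gene types, noncoding ones included, were allowed. The gene with the most member bins was Dnm3, with 34 of its 37 open distal bins; Dnm3 encodes a dynamin, and an intron of it holds the antisense transcript Dnm3os, which is known from mesenchyme. It was followed by Gas1, a hedgehog co-receptor (27 of 33), and by Col1a1 (25 of 32), the main chain of type I collagen. Then came Mki67 (21 of 30), Npvf (21 of 34), Rad51b (21 of 29) and Zmiz1 (21 of 56), and last Fgfr2, a receptor of fibroblast growth factors (20 of 30), Ror2, a Wnt receptor (20 of 27), and Usp29, which lies in an imprinted domain (20 of 26). Zfp36l1 had 20 member bins as well (20 of 56), a tie at the cut of 10 genes. The bins assigned to Mki67 lay 28640 to 562640 bp from its TSS and those assigned to Npvf 8562 to 381562 bp.

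Collagen and matrix genes had the highest share of member bins among the gene lists examined. Of 196 open distal bins nearest to 1 of the 25 matrix genes, 148 were member bins (75.5%), against 35.2% over all open distal bins, and 22 of the 25 genes had at least 1. Every open distal bin was a member bin for Col3a1 (6 of 6), Col6a2 (15 of 15), Postn, the gene of periostin (11 of 11), and Fbn2, the gene of a fibrillin of elastic microfibrils (8 of 8). Col1a2 had 11 of 12, Col5a1 15 of 22 and Tnc, the gene of tenascin C, 9 of 12. With TSSs of all gene types the matrix list kept 74 of 103 bins (71.8%). Neither this list nor those below were matched for distance to the TSS. At 2 to 10 kb from a protein-coding TSS lay 1370 member bins and 5370 other open distal bins, but 1909 and 1349 at 100 to 500 kb. The part of distance in the shares of the lists was not tested.

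Summed over the member bins of a gene, the matrix genes differed in which of the other clusters came next. The 25 Col1a1 bins together held 166 FPM in cluster 1 and 24.6 in the pool, and 80.6, 56.3 and 50.5 in clusters 3, 7 and 10. The 11 Col1a2 bins held 60.7 in cluster 1 and 26.6, 15.48 and 27.4 in clusters 3, 7 and 10. The 15 Col6a2 bins held 67.7, and 27.6, 24.1 and 38.7 in the same clusters. In these sums over libraries, cluster 10 was next to cluster 1 at Col6a2 but last of the 3 at Col1a1. At Col6a2 this held in every library, whereas at Col1a1 cluster 10 was above cluster 7 at E13.5 (50.3 and 42.5) and below it only at E15.5 (46.6 and 64.5), and at E12.5, with 2 nuclei, it was the highest of the 3 at 107. The 5 bins of Fbln1, the gene of fibulin 1, held 17.5 in cluster 1, 8.13 in cluster 3, 1.65 in cluster 7 and 5.36 in cluster 10.

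Transcription factors of mesenchyme ranked next by share after a list of 11 genes of meninges and dermis with 32 of 51 bins (62.7%), 16 of them near Cxcl12, a chemokine gene. The 30 mesenchyme factors had 114 member bins among 207 open distal bins (55.1%), spread over 21 genes, but with TSSs of all gene types the count was 28 of 82 (34.1%), at the level of all open distal bins, and that of the meninges and dermis list was 0 of 11. Ebf1 had 16 of 23, Ebf2 13 of 22, Osr1 11 of 14, Meox1 10 of 17, Twist2 9 of 11 and Prrx1 5 of 5, whereas Twist1 had 1 of 4. No member bin was nearest to Foxc2, Foxf1, Osr2, Alx1, Alx4, Snai2, Tcf21, Meis2 or Shox2.

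At the best-covered bin of several factors the level in clusters 3, 7 and 10 was well below that of cluster 1. The Prrx1 bin (chr1:163209001-163210000, 79224 bp from the TSS) held 4.05 FPM in cluster 1, 1.65 in cluster 3, 0.507 in cluster 7 and 0.988 in cluster 10. The Meox1 bin (chr11:101856001-101857000), near a gene of somite derivatives, held 7.49 in cluster 1, 2.17 in cluster 3, 0.888 in cluster 7 and 0.706 in cluster 10. The Tbx15 bin (chr3:99573001-99574000), near a T-box gene of skeletal and dermal development, held 4.59 in cluster 1, 1.13 in cluster 3, no fragment in cluster 7 and 0.423 in cluster 10. At other factors 1 of these clusters came close to cluster 1. The Ebf3 bin (chr7:137086001-137087000) held 5.80 in cluster 1 and 5.33 in cluster 7, and the Meis1 bin (chr11:19143001-19144000) held 4.38 in cluster 1 and 4.09 in cluster 10.

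The tendon, bone, receptor and TGF-beta lists lay above the share over all open distal bins, and the cartilage, muscle, neural and epithelial lists lay below it. These shares take no account of distance to the TSS. Tendon genes had 19 member bins of 36 (52.8%), 16 of them near Thbs2, the gene of thrombospondin 2, and bone genes had 16 of 31 (51.6%), 11 of them near Runx2, the regulator of bone formation. Receptors of PDGF, FGF and Wnt signals had 66 of 133 (49.6%) and genes of the TGF-beta and BMP pathway 77 of 183 (42.1%), among them Tgfbr3 (19 of 25), Bmp7 (11 of 24) and Tgfbr2 (10 of 12). With TSSs of all gene types the tendon, receptor and TGF-beta lists stayed above 35.2%, at 16 of 31, 39 of 81 and 35 of 73, but the bone list fell below it, with 3 of 11 (27.3%). Cartilage genes had 15 of 45 (33.3%), with Sox9, the regulator of cartilage, at 4 of 17 and no member bin at Col2a1. Muscle genes had 7 of 33 (21.2%), none of them at Myod1 or Myog, neural progenitor genes 9 of 40 (22.5%), epithelial genes 3 of 19 (15.8%) and neuron genes 0 of 15.

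Several lists rested on 1 gene. The list of liver, endothelium and white blood cell genes had 16 of 39 (41.0%), 14 of them near Cdh5, the gene of an endothelial cadherin, and the red blood cell list had 10 of 35 (28.6%), all near Zfpm1, the gene of a GATA cofactor; with TSSs of all gene types these counts were 0 of 12 and 0 of 8. Hox genes had 7 of 18 (38.9%), smooth muscle and pericyte genes 4 of 21 (19.05%) and glial genes 1 of 4.

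**Figure D1:**
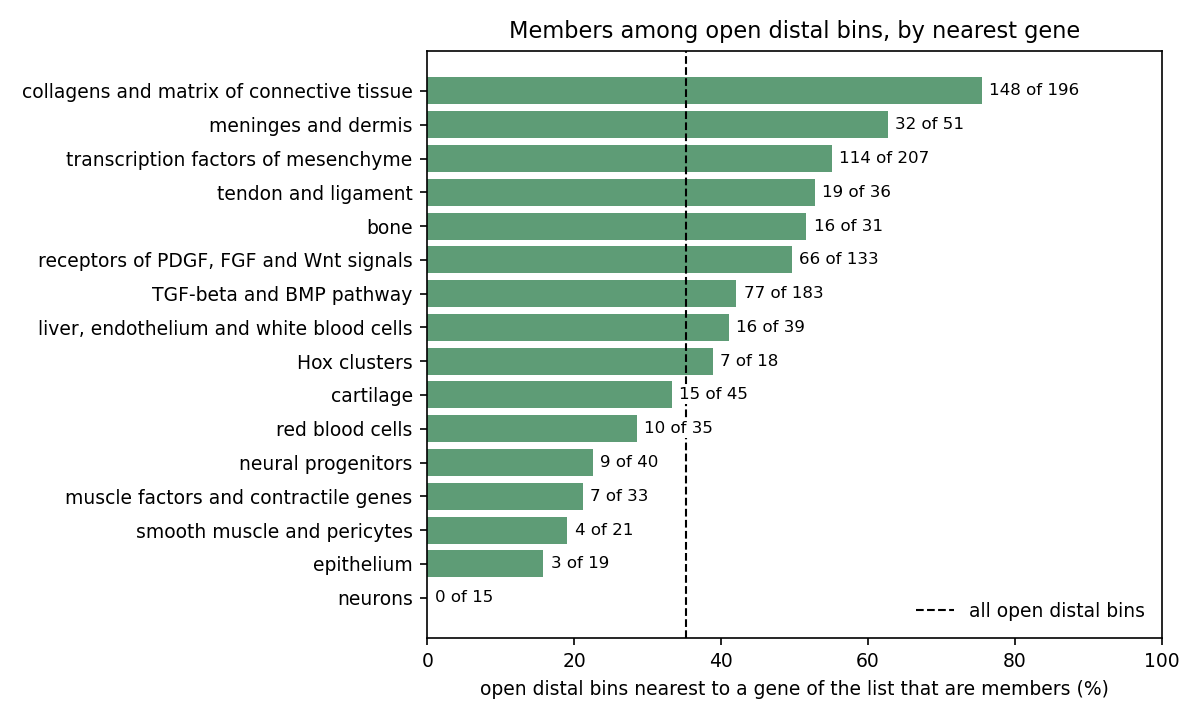
Bars give, for each list of at least 15 open distal bins, the percentage that were member bins, with the counts beside each bar and the 35.2% over all open distal bins as a dashed line. The matrix list reaches 75.5% and the neuron list 0.

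The member bins also differed in sequence from the other open distal bins. In windows of 300 bases at the insertion summit of cluster 1, searched on both strands, the E-box letters CAGATG occurred in 37.3% of the member bins and 25.7% of the others (29.8% of all open distal bins). The NFI half-site TTGGCA occurred in 26.1% and 19.2% (21.6% of all), and the TEAD letters CATTCC in 25.1% and 18.6% (20.9% of all). Differences were smaller for the E-box CAGCTG (30.5% and 26.4%, 27.9% of all), the RUNX letters TGTGGT (25% and 21.3%, 22.6% of all) and the AP-1 letters TGANTCA (11.9% and 9.12%, 10.1% of all). The order was turned for the GC box GGGCGG, which SP and KLF factors bind (9.31% and 19.3%, 15.8% of all), the T-box letters AGGTGT (9.19% and 12.99%, 11.7% of all) and the EBF core CCCNNGGG (10.6% and 13.2%, 12.3% of all).

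Base composition moved with these shares. The median GC content of the windows was 48.7% in the member bins and 52.7% in the others. Among windows with 45 to 50% GC, CAGATG occurred in 37.2% and 28.2%, CATTCC in 25.8% and 19.99%, and TTGGCA in 26.8% and 20.8% of the member bins and the others, and CAGCTG in 27.8% and 19.9%. Within this class the SOX letters ACAAT, which occurred in 31.6% and 27.9% without regard to GC, occurred in 35.9% and 37.4%. CCCNNGGG occurred in 9.01% and 6.82%, so that the order of both was turned. Among windows with 50 to 55% GC, ACAAT occurred in 26.0% and 26.9% and CCCNNGGG in 12.8% and 12.9%. Between ACAAT and CCCNNGGG, only the order of ACAAT was turned in that class. The GC box GGGCGG occurred in 6.34% and 8.53% at 45 to 50% GC and in 11.7% and 14.5% at 50 to 55% GC. These gaps were narrower than without regard to GC, and narrower than those of the T-box letters AGGTGT. The T-box letters occurred in 9.47% and 12.7%, and in 10.5% and 14.0%, in the same classes. The SMAD letters CAGAC (57.6% and 57.5%) and the MEIS letters TGACAG (21.3% and 21.4%) had nearly equal shares, and the homeodomain letters TAATTA, the MEF2 letters TAAAAATA, the FOX letters TGTTTAC, the GATA letters AGATAA and the TCF/LEF letters CTTTGAT occurred in at most 11.2% of the member bins and differed by at most 1.91 percentage points. Where 2 words start with the same letters, as CAGATG and CAGAC do, they were searched and counted apart, and the letters of the second E-box and of the homeodomain, AP-1 and EBF motifs read the same on both strands.

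**Figure D2:**
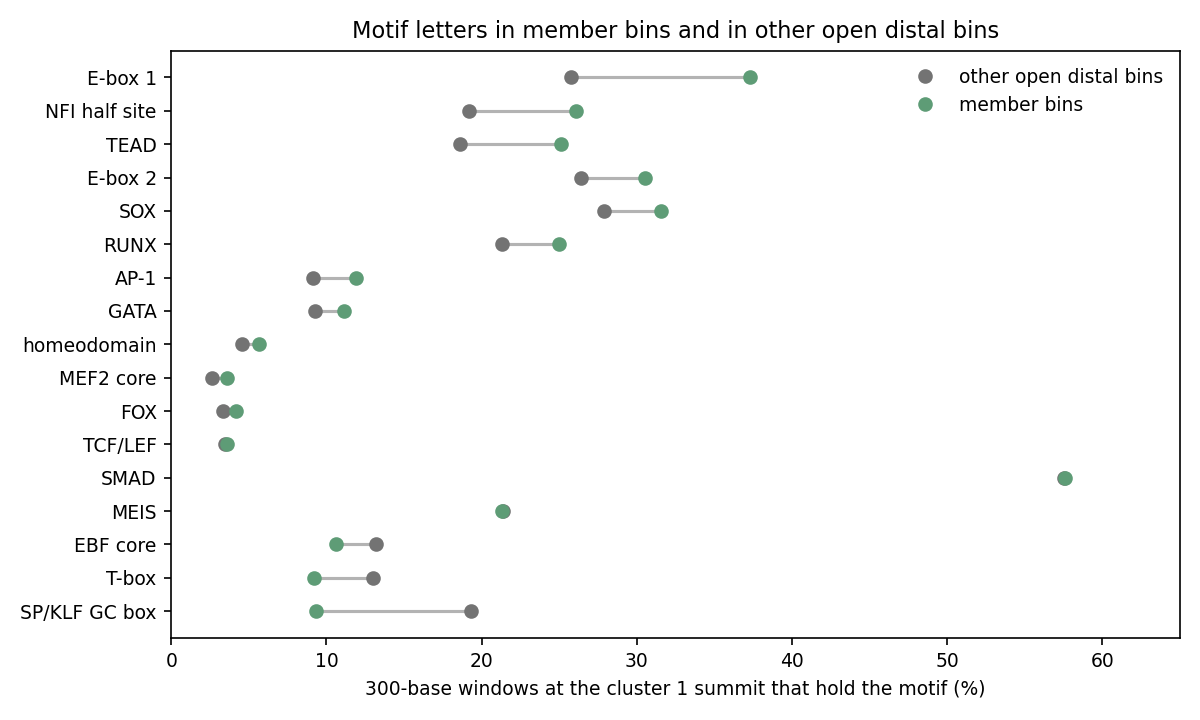
Points give the percentage of windows of 300 bases at the cluster 1 summit that held the letters of each motif, in member bins and in the other open distal bins; E-box 1 is CAGATG and E-box 2 is CAGCTG. Without regard to GC content, E-box 1 shows the widest gap towards the member bins, 37.3% against 25.7%, and the GC box the widest gap the other way. Among windows with 45 to 50% GC, the GC box occurred in 6.34% of the member bins and 8.53% of the others.

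The share of a cluster's autosomal fragments that fell in the member bins measured how far other nuclei used the same regions. It was 2.80% in cluster 1, 1.19% in cluster 3, 1.16% in cluster 10 and 1.11% in cluster 7, against 0.370 to 0.654% in the clusters of the pool. In order of stage the share was 1.05, 1.22 and 1.19% in cluster 3, 1.37, 1.14 and 1.19% in cluster 10, and 0.811, 1.13 and 1.13% in cluster 7. The low shares of the pool follow from the choice and are no measure for clusters 3, 7 and 10. These could not be put in a fixed order: cluster 10 was the highest at E12.5, where it had 2 nuclei, and cluster 3 at E13.5.

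The clusters also differed in the share of fragments in the other open distal bins, which was 2.98% in cluster 3, 4.34% in cluster 7 and 3.81% in cluster 10. For each fragment in the other open distal bins, cluster 1 had 0.568 fragments in member bins, cluster 3 had 0.398, cluster 10 had 0.305 and cluster 7 had 0.257. At E13.5 and E15.5 this ratio was 0.405 and 0.384 in cluster 3, 0.305 and 0.300 in cluster 10, and 0.277 and 0.252 in cluster 7. By this ratio the 3 clusters did not overlap over these libraries. At E12.5, with 25, 2 and 6 nuclei, the values were 0.387, 0.368 and 0.211. In the pool the ratio ranged from 0.127 to 0.174 over clusters. The order of clusters 3, 10 and 7 depended on the measure. Relative to the mean of all distal bins in the same cluster, member bins held 4.49, 4.54 and 4.60 times as much at E13.5. At E15.5 these values were 4.42, 4.76 and 4.84, so the order was turned. Distal bins held 73.0, 67.6 and 64.0% of the autosomal fragments of clusters 3, 10 and 7. The part of this in the ratio was not tested.

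**Figure D3:**
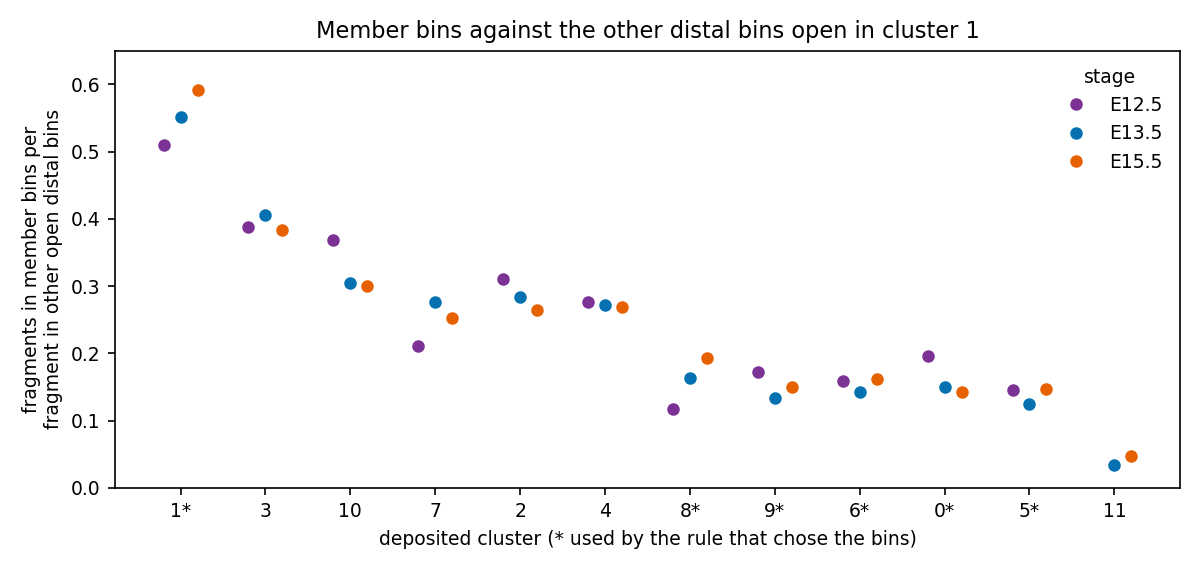
Points give, for each deposited cluster and stage with at least 100 fragments in member bins, the number of fragments in member bins per fragment in the other open distal bins; asterisks mark the clusters that entered the choice. Clusters 3, 10 and 7 lie below cluster 1, the shallow clusters 2 and 4, at 0.279 and 0.271 over all libraries, lie near cluster 7, and cluster 11, which did not enter the choice, is lowest at 0.0356.

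Single nuclei showed the same range. Among nuclei with at least 3000 autosomal fragments, the share in the member bins was lowest at 1.56%, 2.80% at the median and highest at 7.78% in cluster 1. In cluster 3 it ran from 0.493 to 1.98% with a median of 1.19%, in cluster 7 from 0.439 to 2.44% with a median of 1.06%, and in cluster 10 from 0.637 to 2.42% with a median of 1.10%. The ranges overlapped: 29 of 208 nuclei in cluster 3 (13.9%), 18 of 109 in cluster 7 (16.5%) and 14 of 75 in cluster 10 (18.7%) reached the lowest value of cluster 1, whereas 1 of the nuclei in the pool did so, in cluster 6.

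**Figure D4:**
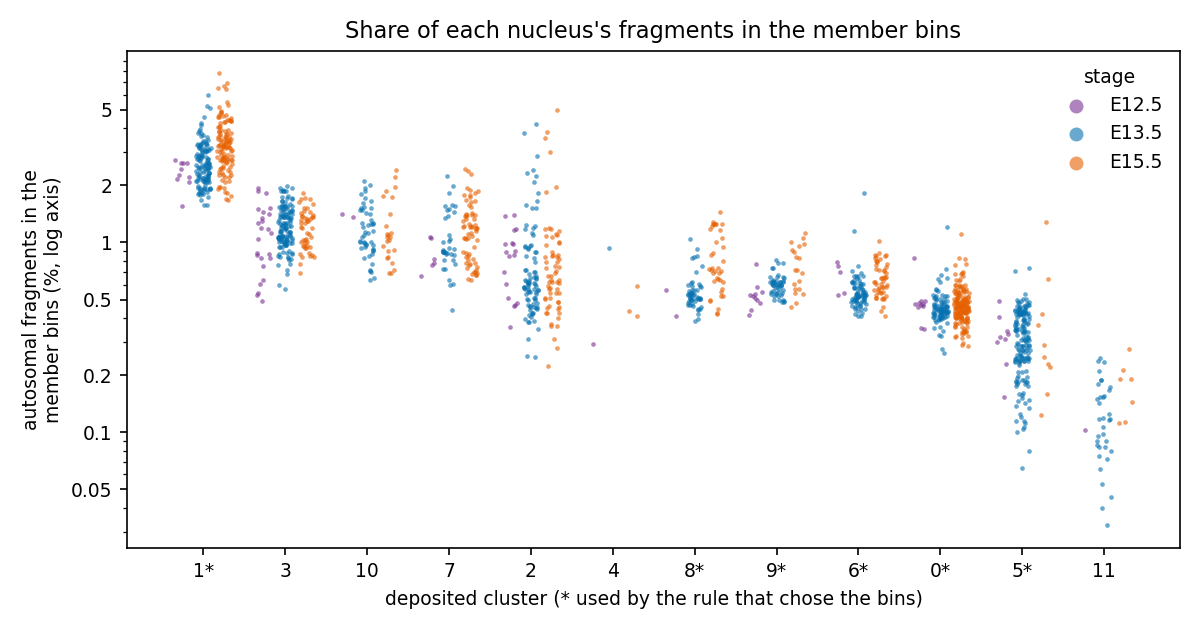
Each point is 1 nucleus with at least 3000 autosomal fragments, placed by deposited cluster and coloured by stage, and the vertical log axis gives the percentage of its autosomal fragments in the member bins. Cluster 1 has the highest median, 2.80%, clusters 3, 7 and 10 have medians between 1.06 and 1.19%, and cluster 11 has the lowest median, 0.117%.

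Bin by bin, the member bins were shared unevenly among clusters 3, 7 and 10. The median level was 1.30 FPM in cluster 3, 1.01 in cluster 7 and 0.847 in cluster 10, below the medians of 1.78, 2.28 and 1.98 in the other open distal bins and above those of 0.261, 0.127 and 0.141 over all distal bins. Cluster 3 was the highest of the 3 in 3651 member bins, cluster 7 in 2132 and cluster 10 in 2140. Over all libraries cluster 3 had 22994303 autosomal fragments, cluster 7 had 7881865 and cluster 10 had 7087061. The part of this unequal depth in the counts of this paragraph was not tested. No member bin lacked fragments in cluster 3, whereas 209 had none in cluster 7 and 356 none in cluster 10, which at these depths allows up to 0.381 and 0.423 FPM. Conversely, 532, 933 and 1004 member bins in clusters 3, 7 and 10 lay above the median that cluster 1 itself had over the member bins.

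The loci with the most member bins gave examples of this division. At Gas1 the 27 bins summed to 109 FPM in cluster 1, 86.5 in cluster 10, 48.8 in cluster 3 and 31.2 in cluster 7, and at Usp29 the muscle-like cluster 10 was above cluster 1, with 78.6 and 67.4. At Fgfr2 cluster 7 was next to cluster 1, with 39.2 and 58.3, and cluster 10 held 8.61. At Cxcl12 the 16 bins held 43.6 in cluster 1, 22.3 in cluster 3, 22.9 in cluster 10 and 7.61 in cluster 7. In these sums, which of the 3 clusters was the highest changed from locus to locus.

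Differences between clusters 3, 7 and 10 were then fitted with edgeR's quasi-likelihood test over 361414 distal bins, with fragments summed per cluster and library and the library as a block. The clusters had been made from the same nuclei, so these comparisons describe the clusters, and 7515 of the 7923 member bins held enough fragments (20 midpoints in clusters 3, 7 and 10) to be tested. Between clusters 10 and 3, 18 member bins were called higher in cluster 10 (0.121% of all tested bins were) and 1 was called higher in cluster 3 (0.00194% of all). Between clusters 7 and 3, 0 member bins were called higher in cluster 7 (0.000277% of all) and 1 was called higher in cluster 3 (0.000277% of all). Between clusters 10 and 7, 55 were called higher in cluster 10 (0.161% of all) and 40 higher in cluster 7 (0.08% of all). The median log2 difference over the member bins was -0.78 for cluster 10 minus 3, -0.53 for 7 minus 3 and -0.20 for 10 minus 7, against -0.34, -0.19 and -0.14 over the other tested bins. At an unadjusted p under 0.05 there were 1472, 969 and 1350 member bins in the 3 comparisons (19.6, 12.9 and 17.96%), against 7.75, 6.06 and 10.01% of all tested bins. The member bins and all tested bins were not matched for their number of fragments. Among bins with at least 50 midpoints these shares were 25.5, 18.6 and 27.2%, against 16.9, 10.9 and 21.9% of all. DESeq2 called 57 member bins higher and 1 lower in cluster 10 than in cluster 3 (1116 and 7 of all tested bins), 1 higher and 1 lower in cluster 7 than in cluster 3 (91 and 1 of all), and 85 higher and 39 lower in cluster 10 than in cluster 7 (708 and 257 of all). The counts and their direction depended on the minimum of fragments. With at least 50 midpoints per bin, 91 of 3430 member bins were called higher and 115 lower in cluster 10 than in cluster 3, so that most calls went the other way, against 1546 higher and 315 lower of all 37227 bins tested. With the same minimum, 1 member bin was higher and 18 lower in cluster 7 than in cluster 3 (93 and 29 of all), and 240 were higher and 129 lower in cluster 10 than in cluster 7 (2014 and 1147 of all). With no minimum, 0, 0 and 5 member bins were called. When sums of at least 10 instead of 20 nuclei were allowed, no member bin was called in any of the 3 comparisons, so every call below was lost. They also depended on the scaling: with RLE size factors in place of TMM, 40 member bins were called higher and 10 lower in cluster 10 than in cluster 3 (877 and 36 of all), 160 higher and 42 lower in cluster 10 than in cluster 7 (1801 and 347 of all), and the median log2 difference of cluster 10 minus 7 was 0.12 over the member bins and 0.17 over the others. With totals in place of TMM the counts of clusters 10 and 7 were 117 and 53 (1300 and 459 of all). Under TMM, RLE and totals the median of the member bins lay below that of the other bins in each comparison, but the order was turned for 10 minus 7 with at least 50 midpoints (-0.02 and -0.09) and for 7 minus 3 with no minimum (-0.74 and -0.87).

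The member bin that was higher in cluster 3 than in cluster 10 was the Col1a1 bin at chr11:94882001-94883000. It held 6.21, 9.69 and 12.4 FPM in cluster 3 in order of stage, and 12.6, 2.64 and 0.501 in cluster 10, where the first value is 2 fragments from 2 nuclei, was not part of the fit and goes the other way. The fitted log2 difference of cluster 10 minus cluster 3 was -2.79 with a standard error of 0.57 (edgeR, adjusted p = 0.00402). The test itself gives no standard error, so this and the later ones were computed from the log2 difference and the F statistic. At E13.5 and E15.5, the values of cluster 10 lay below those of cluster 3.

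The 5 member bins named as higher in cluster 10 than in cluster 3 lay near Ddc, Camta1, Skp2, Runx1 and Gas1. The Ddc bin (chr11:11844001-11845000), 7721 bp from the TSS of a gene for an enzyme of amine synthesis, held 15.4 and 25.5 FPM in cluster 10 at E13.5 and E15.5, and 3.18 and 1.35 in cluster 3. Its log2 difference was 2.74 with a standard error of 0.56 (edgeR, adjusted p = 0.00375). In cluster 1 the bin held 6.41 FPM, below cluster 10. The log2 differences of the other 4 lay between 2.68 (Gas1) and 3.33 (Skp2), with edgeR adjusted p-values between 0.00772 and 0.0136.

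The member bin lower in cluster 7 than in cluster 3 lay at chr13:54332001-54333000, 38349 bp from the TSS of Cplx2, which encodes a complexin of synaptic vesicles. It held 6.02 and 6.00 FPM in cluster 3 at E13.5 and E15.5, 0 and 0.575 in cluster 7, and 16.2 in cluster 1 over all libraries. The log2 difference of cluster 7 minus cluster 3 was -4.01 with a standard error of 0.77 (edgeR, adjusted p = 0.0396).

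Between clusters 10 and 7, the member bins named as higher in cluster 10 lay near Abca4, Ppp1r9a, Gas1, Ddc and Tns1. The Abca4 bin (chr3:122088001-122089000) held 16.8 and 12.01 FPM in cluster 10 at E13.5 and E15.5 and 0.442 and 0.192 in cluster 7, a log2 difference of 5.35 with a standard error of 0.88 (edgeR, adjusted p = 0.000134). The Ppp1r9a bin (chr6:4994001-4995000) held 12.4 and 17.0 in cluster 10 and 0 and 0.959 in cluster 7. Both were open in cluster 1 at 5.33 and 10.6 FPM.

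Those named as higher in cluster 7 lay near Ets2, Rflna, Clmn, Nanog and Zfp608. The Ets2 bin (chr16:95848001-95849000), 130267 bp from the TSS of an ETS factor gene, held 15.48 and 6.33 FPM in cluster 7 at E13.5 and E15.5 and 0.203 and 1.00 in cluster 10, a log2 difference of cluster 10 minus cluster 7 of -4.50 with a standard error of 0.87 (edgeR, adjusted p = 0.00168). The Rflna bin (chr5:124964001-124965000) held 14.6 and 11.9 in cluster 7 and 1.83 and 0.501 in cluster 10. The Clmn and Zfp608 bins had no fragment in cluster 10, so against a floor of 3 fragments they were at least 12.6-fold and at least 14.1-fold lower there than in cluster 7, where they held 42 and 47 fragments.

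The called member bins also differed in motif letters. Of the 55 member bins higher in cluster 10 than in cluster 7, 42 held CAGCTG (76.4%), the E-box form known from muscle factors such as Myod1, against 13 of the 40 higher in cluster 7 (32.5%) and 30.5% of all member bins. CAGATG was in 25 of the 55 (45.5%) and in 7 of the 40 (17.5%), against 37.3% of all member bins. Of the 18 member bins higher in cluster 10 than in cluster 3, 12 held CAGCTG and 11 held CAGATG. Motif shares of the called bins outside the member bins were not computed, so these shares are not shown to be particular to member bins. The called member bins nearest to a gene of the lists were at Col1a1, Smad7 and Fgfr2.

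The choice was also repeated in some of the libraries and read in a library whose fragments had not been used for it. The clusters had been made from nuclei of all libraries, so the library that was read helped to form the groups compared. The make-up of the pool also differed between libraries. Cluster 5 gave 12817784 autosomal fragments at E13.5 and 497044 at E15.5, and cluster 0 gave 6258577 and 11416452. The part of this in the shares below was not tested. From E12.5 and E13.5 together, 2831 of 6661 bins with the minimum of fragments were chosen, and 67.8% of them reached a ratio of 3 in E15.5, against 33% of all 6661 bins and 7.31% of those not chosen. From E15.5 alone, 1959 of 4048 bins were chosen, and 67.8% of them reached the ratio in E13.5, against 36.6% of all 4048 bins and 7.32% of those not chosen. The median ratio in the library not used was 4.12 and 4.05 for the chosen bins and 1.33 and 1.40 for the others. With 1 instead of 0.1 FPM added, the shares of chosen bins at the ratio were 40.7% and 39.1%.

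Between stages, the member bins in cluster 1 were on the whole higher at E15.5 than at E13.5, more so than the other open distal bins. With 1 library per stage there is no test, and a bin was counted as changed when the ratio of E15.5 over E13.5 was at least 2 or at most 0.5 and its 95% exact interval, which covers counting error only, left out 1. By this count 1240 member bins were higher at E15.5 (15.7%), against 11.9% of all open distal bins, and 449 were lower (5.67%), against 5.29% of all. When each ratio was set against the median ratio of the open distal bins, 942 member bins were higher (11.9%) and 649 lower (8.19%), against 8.82% and 7.89% of all open distal bins. The median ratio was 1.18 in the member bins and 1.09 in the other open distal bins. The share of cluster 1 fragments in the member bins went the same way, with 2.33, 2.59 and 3.13% in order of stage, and so did the median over nuclei, with 2.36, 2.53 and 3.21%. From E13.5 to E15.5 the share also rose in every cluster of the pool: 0.475 to 0.494% in cluster 0, 0.364 to 0.519% in cluster 5 and 0.578 to 0.661% in cluster 6. It rose from 0.572 to 0.812% in cluster 8 and from 0.591 to 0.702% in cluster 9. Cluster 5 had 10 nuclei at E15.5. Outside the choice, the share went from 1.22 to 1.19% in cluster 3, from 1.127 to 1.131% in cluster 7 and from 1.14 to 1.19% in cluster 10. The share of cluster 1 in the other open distal bins rose from 4.70 to 5.28%. A rise was thus also present in the pool, whose levels the choice used, and in the other open distal bins of cluster 1. The stage libraries differed in depth per nucleus, the median in cluster 1 being 64094 fragments at E13.5 and 48174 at E15.5, and the part of this in the result was not tested. Marker levels over genes in cluster 1 moved too: from E13.5 to E15.5 the summed level of the 8 mesenchyme markers went from 777 to 894 of every 1000000 fragments over genes, and the sums of the other 11 marker lists were lower at E15.5, as for neuron (465 and 378), muscle (246 and 192), epithelium (217 and 169) and red blood cell markers (59.1 and 46.1), with no marker at 0. Their part in the result was not tested.

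**Figure D5:**
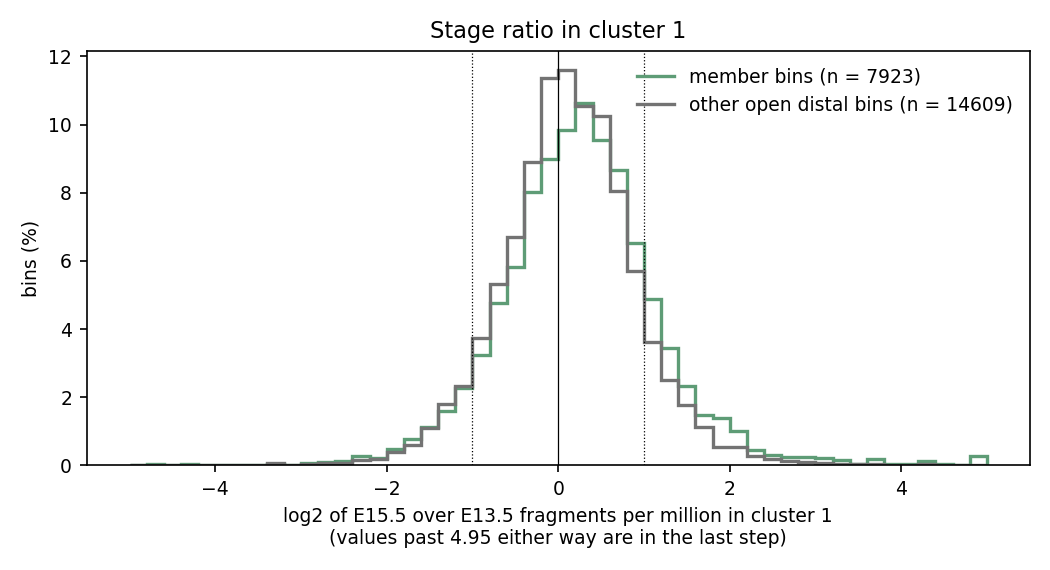
Steps give the percentage of bins by the log2 ratio of E15.5 over E13.5 FPM in cluster 1, for member bins and the other open distal bins, with dotted lines at a ratio of 2 and of 0.5. The member bins extend further to the right, with 15.7% counted as higher at E15.5 and 5.67% as lower.

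The strongest single stage differences rested on few nuclei, and the bins passed the minimum of 30 fragments through the stage at which they were high, so their contrast is a description. The bins named as higher at E15.5 lay near Kctd3, Ryr2, Vegfa, Ephb1 and Grik4, the genes of a channel tetramerisation protein, a calcium release channel, a vascular growth factor, an ephrin receptor and a glutamate receptor. The Kctd3 bin (chr1:189104001-189105000) had no fragment of cluster 1 at E12.5 or E13.5 and 37 at E15.5, from 9 nuclei, and was at least 16.6-fold higher at E15.5 than a floor of 3 fragments at E13.5. The Ryr2 and Vegfa bins had no fragment at E12.5 or E13.5 and 33 each at E15.5, from 9 and 13 nuclei, at least 14.8-fold higher. The Ephb1 bin had 1 fragment at E13.5 and 44 at E15.5, and the Grik4 bin 2 and 49. Up to 10 fragments of the Kctd3 bin came from 1 nucleus.

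Those named as lower at E15.5 lay near Adamts16, Lrrc52, Tgfb2, Ism1 and Smim23. The Adamts16 bin, near the gene of a matrix protease, had 35 fragments at E13.5 from 19 nuclei and 1 at E15.5, and the Tgfb2 bin (chr1:186469001-186470000), near the gene of a transforming growth factor, had 33 from 16 nuclei and 1. The Smim23 bin had 5, 41 and 3 fragments in order of stage, from 3, 28 and 3 nuclei. When at most 2 fragments of a nucleus were counted in a bin, an alternative added after the data had been seen, 1095 member bins were higher at E15.5 (13.8%) and 302 lower (3.81%), against 10.4% and 3.23% of all open distal bins.

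Among the factors of mesenchyme, 15 of the 114 member bins were higher at E15.5 and 8 lower, near the 15.7% and 5.67% of all member bins. The best-covered Tbx15 bin held 12.3, 6.23 and 1.65 FPM in order of stage, with a ratio of E15.5 over E13.5 of 0.264 (0.120 to 0.527). The Msx2 bin (0.363) and the Foxc1 bin (0.352) were lower as well. The Meis1 bin held 1.76, 2.44 and 7.25 FPM, with a ratio of 2.97 (1.71 to 5.31), and the Msx1 bin had a ratio of 2.02 (1.14 to 3.64). These values belong to 1 bin each: summed over the 7 member bins of Meis1 the ratio was 1.16 (0.924 to 1.46), and over the 3 of Msx1 it was 1.39 (0.961 to 2.02), and both intervals held 1.

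Of the 148 member bins of matrix genes, 25 were higher at E15.5 and 4 lower, with a median ratio of 1.26, where all member bins had 15.7% higher, 5.67% lower and a median of 1.18. At Col1a1 the 25 bins summed to 87.8, 144 and 202 FPM in order of stage, a ratio of E15.5 over E13.5 of 1.41 (1.30 to 1.52), and 6 of the bins were higher and 1 lower. The 16 bins of Thbs2 summed to 35.1, 30.1 and 50.2, a ratio of 1.67 (1.41 to 1.99), with 5 higher and 0 lower. At Col6a1 the ratio of the sums was 1.63 and at Col14a1 1.79 (1.38 to 2.33), whereas at Tnc it was 0.827 (0.653 to 1.04) and at Dnm3 0.854 (0.775 to 0.941). The summed ratios of Cxcl12 (0.884, 0.751 to 1.04) and Gas1 (1.01, 0.913 to 1.12) had intervals that held 1. Both intervals lay below the median ratio of the member bins, 1.18. Over all member bins, the share of cluster 1 fragments rose from 2.59% at E13.5 to 3.13% at E15.5.

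The tendon list had 5 of 19 bins higher at E15.5 and 1 lower, where all member bins had 15.7% and 5.67%, and all 5 were at Thbs2. The list of meninges and dermis genes had 3 of 32 higher and 5 lower. CAGATG was in 34.9% of the 1240 bins higher at E15.5 and in 32.3% of the 449 lower ones, both below the 38.1% of the member bins in neither group. TTGGCA was in 28.3% of the higher and 22.5% of the lower bins (25.9% in neither), CAGCTG in 33.9% and 26.3% (30.1%), and AGGTGT in 7.42% and 13.8% (9.21%), so that for these motifs the bins in neither group lay between the others.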

How the data were processed

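The authors mapped the reads with Cell Ranger ATAC 2.0.0 (the submitters' processing notes also name Seurat 4.1.0 and Signac 1.6.0) to mm10 and deposited, for each of the 3 libraries, 1 line per unique fragment with its barcode and a count of the read pairs behind it, and a table of the nuclei with their cluster; 20 further columns of that table were not used. The deposited clusters had been computed together with spatial profiles, and how doublets were treated was not given in the sources used here; none were removed.

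Fragments of listed nuclei were counted by midpoint in 1 kb bins. Distances, introns, exons and untranslated regions come from GENCODE M21. The member bins and the gene and motif lists were chosen with earlier results of these data known. Named are the 10 member bins with the most cluster 1 fragments, those at the thresholds, up to 5 called per direction by adjusted p or, between stages, by the interval bound nearest to 1, the best-covered bin of each listed gene, and the 10 genes with the most bins.

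Clusters 3, 7 and 10 were compared with edgeR 4.0.16 in R 4.3.3 (glmQLFTest, TMM, library as a block) on 19 sums of a cluster in a library with at least 20 nuclei, without the shallow clusters 2 and 4, for bins with at least 20 midpoints in clusters 3, 7 and 10. P-values were Benjamini-Hochberg adjusted over all bins tested, with a threshold of 0.05. They measure the spread of the cluster sums that is left after the library block, pooled over all clusters in the fit. Of the 19 sums, 7 were of clusters 3, 7 and 10. Only cluster 3 entered from E12.5, so the comparisons rest on E13.5 and E15.5. These libraries differ in stage and are not replicates of each other. The fit had 7 residual degrees of freedom. On data simulated for clusters 10 and 3 (40000 bins), it called 30% of bins changed 4-fold and 60% of those changed 8-fold, all in the right direction, and 1 of 39800 unchanged bins. The simulated counts had a smaller spread than the data, whose fitted root common dispersion was 0.426, and no library effect. Changes were placed only in bins with more expected fragments than the minimum tested. These rates therefore do not give the power or the rate of false calls in the data. DESeq2 1.42.0, other scalings, filters and sums, and 1 barcode per linked group were alternatives. Shares and ratios have exact 95% intervals, which cover counting error only.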

Additional observations from a re-analysis of the deposited data

Results flagged for a closer look

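Clusters 2 and 4, which entered no test because their nuclei were shallow, also had fragments in the member bins. Cluster 2 had 0.766% of its autosomal fragments there and cluster 4 had 0.714%, where the 0.370 to 0.654% of the pool clusters follow from the choice of the bins. Of 175 nuclei of cluster 2 with at least 3000 autosomal fragments, 16 (9.14%) reached the lowest share seen in a nucleus of cluster 1, 1.56%, and the highest had 5.008%. These 175 nuclei had a median of 10257 autosomal fragments, and 5 nuclei of cluster 4 passed the minimum. At E15.5, 37 of the 88 barcodes of cluster 2 and 87 of the 110 of cluster 4 shared at least 10% of their fragments with another barcode, and the part of this in the shares was not tested.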

How the results depend on the processing

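Of 78 alternatives computed, 31 kept a count within 1.5 times its value, or a share or difference within its 95% interval, and 47 did not. The majority of calls between clusters 10 and 3 turned with at least 50 midpoints per bin, from 18 higher and 1 lower to 91 and 115, and the median difference of cluster 10 minus 7 turned from -0.20 to 0.12 with RLE size factors. The number of member bins, 7923, was 12201 and 3322 with a fold of 2 and 5, 14872 and 2828 with at least 20 and 50 fragments, 1829 with 1 FPM added, and between 2222 and 7567 without 1 library, lowest without E13.5. The shares of clusters 3, 7 and 10 in the member bins were 1.16, 1.09 and 1.14% with any overlapping fragment counted, 0.493, 0.387 and 0.424% in member bins with a fold of 5, and 28.5, 20.4 and 23.4% of the fragments in open distal bins.

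Member bins called between clusters 10 and 3 (19), 7 and 3 (1), and 10 and 7 (95) numbered 58 and 2 with DESeq2 for the first pair of comparisons, 50, 3 and 202 with RLE size factors, 94, 3 and 170 with totals, 206, 19 and 369 with at least 50 midpoints, 0, 0 and 5 with no minimum, and 0 in each with at least 10 nuclei per sum, a setting with which edgeR called 14, 0 and 1 of all tested bins higher. With only clusters 3, 7 and 10 in the fit, 30 and 2 were called in the comparisons with cluster 3, and without the library block 62 and 3. The cause of these moves was not tested. Stage counts of 1240 and 449 were 494 and 171 with a fold of 3, and 942 and 649 relative to the median ratio of the open distal bins. With 1 FPM added, 40.7% and 39.1% of the bins chosen without a library reached the fold in it. With TSSs of all gene types, the matrix list had 74 and the mesenchyme factor list 28 member bins. The difference in CAGATG, 11.6 percentage points, was 9.85 in windows of 200 bases and 8.43 in whole bins.

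Depth limits the single bins: with a median of 42 fragments in cluster 1, small differences between stages were not detectable. No paired analysis was possible because there is 1 library per stage, as far as stages are compared; clusters were paired within libraries by the block.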

Other observations

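Some genes outside the lists also had several member bins that differed between stages in cluster 1. Bins higher at E15.5 than at E13.5 were most frequent, after Col1a1 and level with Thbs2, near Cops8 (5 of 10 member bins), Mylk, the gene of a myosin light chain kinase (5 of 9), and Zfp36l1, the gene of an RNA-binding protein (5 of 20). Bins lower at E15.5 were most frequent near Cdc5l (4 of 10), Nfe2l3 (4 of 14), Slit3, the gene of a secreted guidance factor (4 of 12), and Sorl1 (4 of 12). Of all member bins, 15.7% were higher and 5.67% lower, against 11.9% and 5.29% of all open distal bins. These genes were chosen after their values had been seen, as those with the most such bins.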
